A study of Mus musculus with 12 samples.

Results

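Immature secondary-granule neutrophils were taken from scRNA-seq of 12 neonatal C57BL6/J mouse livers. They were 4361 of 202557 kept barcodes, with 2285 in 6 control mice and 2076 in 6 mice with phlebotomy-induced anemia. A barcode was kept with 500 to 50000 UMIs (unique molecular identifiers, 1 per captured mRNA molecule) and at most 20% mitochondrial UMIs. Members were chosen by their UMI counts of 12 genes, with at least 10 UMIs of Ngp, Camp and Ltf together, at most 9 of Elane, Mpo and Prtn3, at most 1 of C1qa, C1qb and C1qc, and none of Cd79a, Cd3e and Stab2. Of 5119 kept barcodes with at least 10 UMIs of the first 3 genes, 198 went past the primary-granule limit, 190 past the C1q limit and 462 past the lymphoid and endothelial limit, some of them past several. The rule used UMI counts and not the treatment, so levels of these genes are given as a description with no test.

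Anemic pups lost 20 µL of blood per g of body weight from the facial vein on postnatal days 2, 4, 6, 8 and 10, to a hematocrit of 20 to 24%, and control pups received a needle stick without bleeding. Livers were collected on day 11 by the labels. All 12 mice were wild type and shared 1 labelled batch date, and each library came from 1 mouse. Dissociated whole-liver cells were loaded without a sort, and the slow spin used on the suspension pellets large cells first, so shares of small leukocytes describe the recovered suspension and not the liver. The labels give neither litter nor sex, and the study states that both sexes were used in equal numbers. The Y-linked gene Ddx3y had a median level in members of 1.13 CPM (UMIs of a gene per 1000000 UMIs of the class) in controls and 79.8 CPM in anemic mice. By this gene the groups differed in sex balance, but the medians do not give the number of males in each group. The tests of shares and median UMIs per mouse had no covariate for sex, so sex and anemia are not separated in them.

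Neutrophils develop from promyelocytes, which pack elastase and myeloperoxidase into primary granules, through myelocytes and metamyelocytes, which stop making these proteins and fill secondary granules with lactoferrin and cathelicidin, to band and segmented cells that carry chemokine receptors. Division stops between the myelocyte and metamyelocyte stages. In mice the fetal and neonatal liver is a site of granulocyte production, and Cebpe is the transcription factor needed for secondary granules.

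The libraries held 46252146 to 74545930 UMIs in 14389 to 21202 barcodes, none under 500 UMIs, and any pair of libraries shared 56 to 122 barcode sequences. No doublet caller was run. Of the members, 230 carried at least 2 UMIs of lymphoid, erythroid, endothelial or macrophage markers or at least 10 UMIs of Alb. Over 10000 UMIs were held by 75 members, 1 to 6 in each control mouse and 5 to 19 in each anemic mouse. For this count 5 of 6 anemic mice lay above every control mouse. In B cells, T cells, macrophages and sinusoidal endothelial cells of the same libraries, which lack these granule proteins, 4.35% to 32.8% of barcodes had at least 1 UMI of Ngp, Camp or Ltf, and 0% to 0.831% had 10 or more, at median depths of 2163 to 9050 UMIs. Anemia 2 and anemia 3 stood apart from the other mice in Camp, in interferon-response genes and in Cxcl2, and anemia 6 from the other anemic mice in hepatocyte genes. Values found to rest on them are given with and without them or by mouse.

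The label fitted Cebpe, Chil3, Lcn2, Ly6g and Ctsg, which the rule did not use. Other markers outside the rule, among them Fcnb, Mmp8, Pglyrp1, Cd177, Itgb2l and Mmp9, are not compared between granulocyte stages here. The genes compared are thus a selection of the markers set for the label. For the others the fit is not shown. Mean CPM over 12 mice of Cebpe was 154 ± 20.8 (SD) in members, against 69.3 ± 24.7 in primary-granule cells (705 barcodes with at least 10 UMIs of Elane, Mpo and Prtn3) and 38.2 ± 11.5 in mature neutrophils (4802 barcodes with at least 10 UMIs of S100a8 and S100a9, at least 2 of Csf3r, Cxcr2, Retnlg and Il1r2, and few granule UMIs). Chil3, a chitinase-like lectin, stood at 3107 CPM in members, 424 in primary-granule cells and 66.8 in mature neutrophils. Lcn2, the siderophore-binding protein of secondary granules, stood at 5299, 391 and 420 CPM in the same order. Ly6g, the surface antigen of mouse neutrophils, was at 230 CPM in members and 53.5 in mature neutrophils, and it was near the floor in primary-granule cells at 0.250 CPM. The primary-granule protease Ctsg, which no limit of the rule used, stood at 0.409 CPM in members against 535 in primary-granule cells. Cxcr2 and Csf3r, receptors of late neutrophils, were at 97.1 and 105 CPM in members. Their higher levels in mature neutrophils, of 282 and 673 CPM, follow from the UMIs of these genes that chose that class. Retnlg, a resistin-like protein of late neutrophils, was at 4623 CPM in members. It is not compared with mature neutrophils, which it helped to choose, so it does not bear on the fit. As classes were cut from the same barcodes, these differences describe the classes and carry no test.

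**Figure D1:**
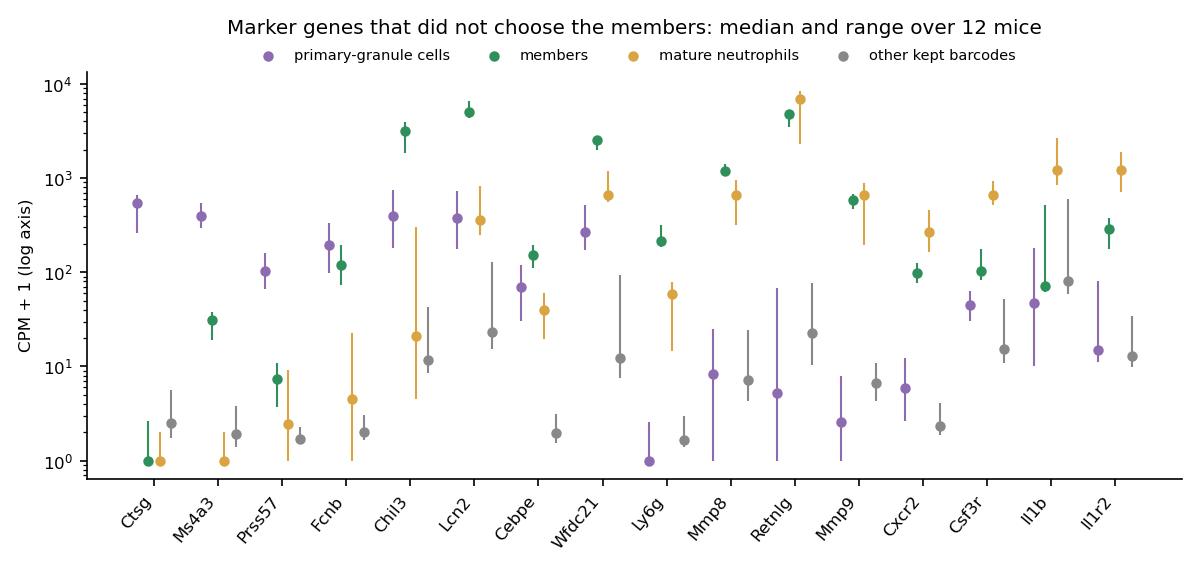
CPM + 1 on a log axis of 16 genes in primary-granule cells, members, mature neutrophils and all other kept barcodes, with points at the median and lines from the lowest to the highest of 12 mice. Chil3, Lcn2, Cebpe, Wfdc21 and Ly6g were highest in members, Ctsg, Ms4a3 and Prss57 in primary-granule cells, and Cxcr2, Csf3r, Il1b and Il1r2 in mature neutrophils. Cxcr2, Csf3r, Il1r2 and Retnlg helped to choose the mature class. Fcnb, Mmp8, Retnlg and Mmp9 are plotted and not ranked here.

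The genes of the rule varied among the members. Ngp, a cathelicidin-related granule protein, took 37767 CPM in members, 4877 in primary-granule cells and 544 in mature neutrophils. Ltf, which encodes lactoferrin, took 9798, 374 and 26.5 CPM. Camp, the cathelicidin precursor, took 24245, 6104 and 149 CPM. At the cut itself, the 94 members with 10 or 11 marker UMIs had a median of 1455 UMIs in all and 166.5 UMIs of S100a8 and S100a9, and the 120 barcodes with 8 or 9 marker UMIs just outside had 1457.5 and 183.5. The rule thus cut through a continuous range on its lower side.

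Members varied in their cell cycle transcripts. Each member was thinned to 1000 UMIs, which left out 91 shallower members (73 control, 18 anemia), and a member counted as cycling with at least 3 UMIs from 32 cell cycle genes. The cut is a range and not a type, since the mean share of control members past it was 35.5% at 1000 UMIs, 70.7% at 2000 UMIs and 57.6% without thinning, so the members under it are not shown to have stopped dividing. Camp stood at 33657 CPM in cycling and 15444 in the other members, and Ngp at 46964 and 29410 CPM. Fcnb, a ficolin of early granule stages, stood at 208 and 38.7 CPM. The order was the opposite for late genes, with Mmp8 (neutrophil collagenase) at 493 and 1878 CPM, Retnlg at 1384 and 7567 CPM and Ly6g at 159 and 297 CPM. Thinned in the same way, 90.9% to 100% of primary-granule cells and 6.60% to 19% of mature neutrophils counted as cycling in single mice.

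The share of cycling members did not pass the test between groups. It ran from 30.8% to 42.2% (median 35.8%) in control mice and from 26.2% to 40.3% (median 34.9%) in anemic mice, and the groups overlapped. The difference was -1.59 percentage points (exact two-sided Mann-Whitney test, p = 0.589, adjusted p = 0.589 over 4 per-mouse results). Thinned to 2000 UMIs the difference was -6.38 points (exact test, adjusted p = 0.240). Without thinning it was 7.77 points in the opposite direction (exact test, adjusted p = 0.0115), and members of anemic mice were deeper. Of the 32 cell cycle genes, all tested, edgeR called 0 at an adjusted p under 0.05, and DESeq2 and limma voom called 0. As edgeR called 0.159% of all genes tested, 0 of 32 is near the background. At an unadjusted edgeR p under 0.05 there were 2, beside 10.6% of all genes. The median log2 fold change was 0.11 against 0.008 over all genes tested.

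Secondary-granule neutrophils made up a smaller part of the granulocyte lineage in every anemic mouse. As a percentage of members, primary-granule cells and mature neutrophils together, they ran from 52.1% to 57.4% (median 55.1%) in control mice and from 16.1% to 45.5% (median 41.3%) in anemic mice. All 6 anemic values lay below all 6 control values. Means were 54.9 ± 1.98% and 37.6 ± 10.8% (SD, n = 6 per group), a difference of -17.2 percentage points (exact two-sided Mann-Whitney test, p = 0.00216, which is the smallest that 6 against 6 allow, adjusted p = 0.00433). Anemia 2 held 186 members against 909 mature neutrophils, and without it the difference was -12.9 points (exact test, adjusted p = 0.00866). Without anemia 2 and anemia 3, the mean of the other 4 anemic mice was 42.1 ± 3.08%.

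The other stages moved as follows. There were 1.16 to 1.62 members for each mature neutrophil in control mice and 0.205 to 0.962 in anemic mice, again without overlap. Mature neutrophils were 1.15% to 2.02% (mean 1.68 ± 0.334%) of kept barcodes in controls and 1.67% to 5.14% (mean 2.93 ± 1.37%) in anemic mice, with overlap. Anemia 2 and anemia 3 were highest, with 5.14% in anemia 2, and the mean of the other 4 anemic mice was 2.16 ± 0.680%. Primary-granule cells were 0.278 ± 0.0950% and 0.410 ± 0.133% (SD, n = 6 per group), also with overlap. Members as a share of all kept barcodes ran from 1.67% to 3.29% (median 2.29%) in controls and from 1.05% to 3.13% (median 1.80%) in anemic mice. These ranges overlapped, and the difference of -0.486 percentage points did not pass the test (exact two-sided Mann-Whitney test, p = 0.180, adjusted p = 0.240). With globin-rich barcodes (at least 20% globin UMIs) left out of the denominator, the means were 2.58% and 2.51%, a difference of -0.0722 points (exact test, adjusted p = 0.818).

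Depth moved with the groups. The median UMIs of mature neutrophils were 858 to 1034 in controls and 1101 to 1917 in anemic mice, and a deeper barcode passes a minimum of UMIs more easily. With barcodes of at least 1000 UMIs thinned to 1000 before the rules and shallower barcodes left out, the difference in the lineage share was -23.3 points (exact test, adjusted p = 0.00433). This left out mature neutrophils unequally, as 101 of 282 in control 3 and 743 of 799 in anemia 3 had at least 1000 UMIs. Thinning also moved barcodes between classes, and 117 and 658 barcodes counted as mature after it. The thinned share thus does not separate depth from the groups. Without the receptor minimum for mature neutrophils, and with all kept barcodes, the difference was -17.4 points (exact test, adjusted p = 0.00433). Fewer members and more mature neutrophils cannot be told apart in a share.

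Members of anemic mice held more mRNA molecules per barcode. Their median depth ran from 1815.5 to 2293 UMIs (median of 6 mice 2052) in controls and from 2422 to 3327.5 UMIs (median 2697) in anemic mice. The groups did not overlap. Means were 2048 ± 154 and 2816 ± 395 UMIs, 1.37-fold higher in anemia (SD, n = 6 per group, exact two-sided Mann-Whitney test, p = 0.00216, adjusted p = 0.00433). Without anemia 2 and anemia 3, the mean of the other 4 anemic mice was 2577 ± 174 UMIs. The median number of genes per member was 656.5 to 808 and 854 to 1040. Kept barcodes outside the lineage, here those in none of the member, primary-granule and mature classes, can still hold granulocytes that the limits cut. They had medians of 2166 to 2479 UMIs in controls and 1768 to 2977 in anemic mice, with overlap. Dividing by the median of all kept barcodes that were not members left a difference of 0.403 in the ratio (exact test, adjusted p = 0.00433). That median also depends on which cells a library holds, so the ratio does not separate depth from the groups. The neighbouring stages were deeper in anemia too. All 6 anemic mice lay above every control mouse for mature neutrophils. For primary-granule cells 5 of 6 did, with medians of 6676 to 8163.5 UMIs in controls and 7503 to 9764 in anemic mice.

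**Figure D2:**
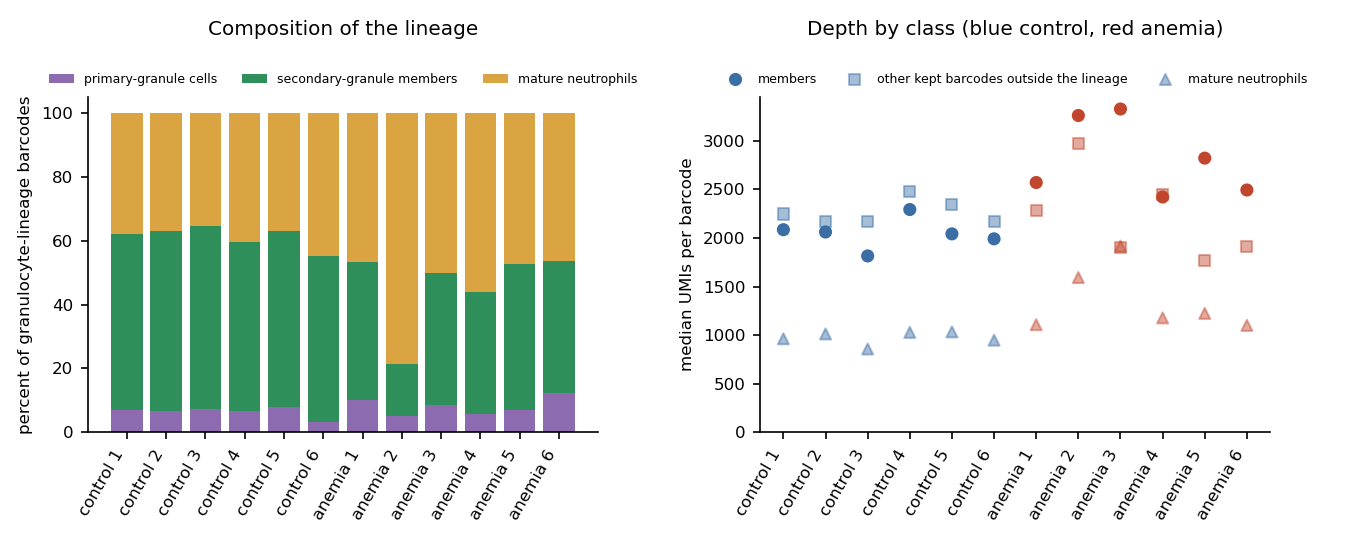
Left, the percentage of granulocyte-lineage barcodes that were primary-granule cells, members and mature neutrophils, 1 bar per mouse. Right, the median UMIs per barcode of members (circles), kept barcodes outside the lineage (squares) and mature neutrophils (triangles), in blue for control and red for anemia. Members were 52.1% to 57.4% of the lineage in controls and 16.1% to 45.5% in anemic mice, and their median UMIs lay above every control value in 6 of 6 anemic mice.

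Per member, UMIs of Ngp and Ltf were higher in anemia, and those of Camp overlapped. These genes chose the members and members of anemic mice were deeper, so the values are a description. Ngp stood at 96.5 ± 9.23 UMIs per member in controls and 133 ± 12.5 in anemic mice, and Ltf at 24.3 ± 2.07 and 35.7 ± 4.22 (SD, n = 6 per group), with all 6 anemic mice above all control mice for both. Camp stood at 65.3 ± 9.53 and 79.6 ± 14.6 UMIs, with 4 of 6 above, while the 2 deepest mice, anemia 2 and anemia 3, lay within the control range at 68.2 and 55.8 UMIs. As a percentage of the members' UMIs the 3 genes together were at 6.02% to 7.79% (median 7.32%) in controls and 5.55% to 8.10% (median 7.47%) in anemic mice. Ngp alone was at 3.19% to 4.16% in control and 3.23% to 4.25% in anemic mice, and Ltf at 0.855% to 1.04% and 0.960% to 1.09%, both with overlap. Camp alone was at 1.98% to 2.78% in control mice and reached down to 1.37% and 1.71% in anemia 3 and anemia 2. All 3 genes were detected in 93.8% to 95.5% of control and 84.4% to 93.0% of anemic members.

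Gene expression in members was compared with edgeR (quasi-likelihood test on UMIs summed per mouse, Benjamini-Hochberg adjustment), leaving out the 12 genes of the rule and the mitochondrial and ribosomal protein genes. Of 8187 genes tested, 13 had an adjusted p under 0.05 (0.159%), with 4 higher (0.0489%) and 9 lower (0.11%) in anemia. At an unadjusted p under 0.05 there were 870 genes (10.6%), 4199 genes (51.3%) had a log2 fold change above 0, and 68 genes (0.831%) had 6 anemic values that did not overlap the 6 control values. Of the 9 lower genes, 4 lay in the stefin A cluster of chromosome 16. With Y-linked expression as a covariate 8 genes were called, all among the 13, and Csta2 (edgeR adjusted p = 0.0694), Stfa2l1 (0.110), Stambpl1, Mif and Bop1 (0.102 each) lost their calls. Without anemia 2 and anemia 3, 24 genes were called and 11 of the 13 were among them. With 1 mouse left out the count ran from 4 (without control 1 or control 6) to 53 (without anemia 6). In these 12 fits Cyp2e1 and Car3 were called each time, Stfa1 and Cstdc6 in 11, Il1r2 in 8, Fabp4 and Stambpl1 in 5, Mif and Bop1 in 4, Csta2 and Stfa2l1 in 3 and Gsta3 in 2.

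**Figure D3:**
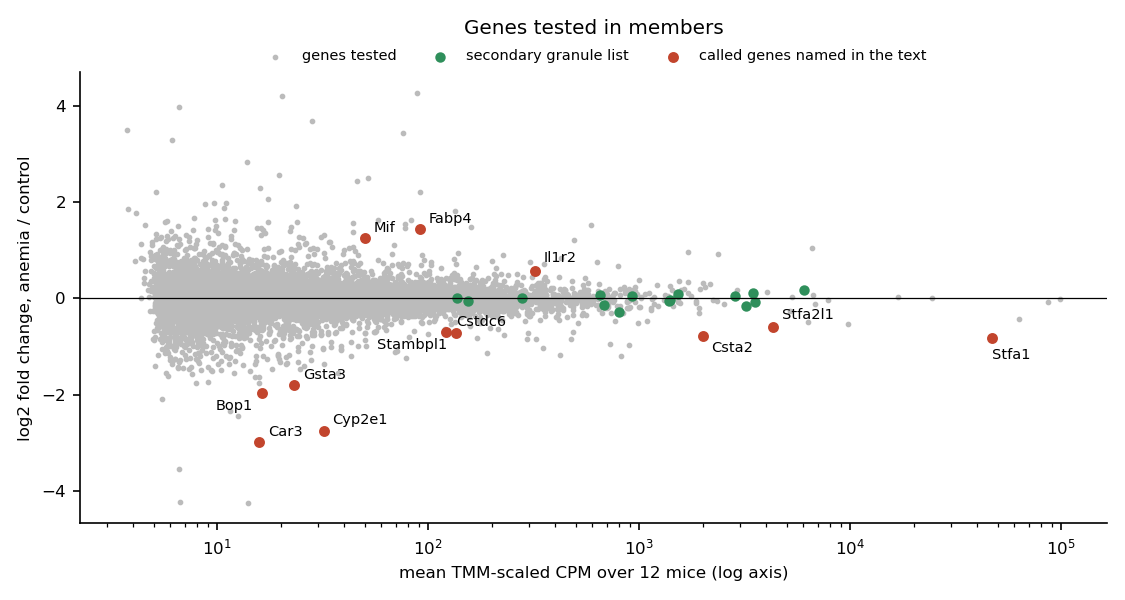
Log2 fold change (anemia over control) against the mean TMM-scaled CPM over 12 mice on a log axis, for the 8187 genes tested in members, with the 12 called genes that are named in the text in red and the 15 genes of the secondary granule list in green. Stfa1 lay far to the right at -0.83, Car3 and Cyp2e1 far down at -2.99 and -2.75, and the green points between -0.28 and 0.16.

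Stefins are small inhibitors of cysteine proteases such as the cathepsins. Mice carry a cluster of stefin A copies in which neutrophils express many, while most mammals have a single stefin A gene. The cluster was singled out after its values were seen, so it carries no test of its own. Its 10 annotated genes lie at 36119946 to 36455392 of chromosome 16 (GENCODE M21 on GRCm38). Csta1 had 6 UMIs in all members and was not tested. The copies are close in sequence, and reads that fit several of them were not counted, so the levels of single copies and of their sum are uncertain.

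Stfa1 (ENSMUSG00000071562, 36276951 to 36285373, plus strand) stood at 50615 to 81532 TMM-scaled CPM (median 54607) in controls and 31420 to 39020 (median 33461) in anemic mice. All anemic mice were below all control mice, and the level was 1.77-fold lower (log2 fold change -0.83, SE 0.13, edgeR adjusted p = 0.0138). Csta2 (ENSMUSG00000095620, 36221468 to 36257444, plus strand) stood at 1973 to 3281 CPM (median 2436) and 1086 to 1935 CPM (median 1470). It was 1.71-fold lower without overlap (log2 fold change -0.77, SE 0.14, edgeR adjusted p = 0.0340).

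Stfa2l1 (ENSMUSG00000059657, 36156811 to 36161953, plus strand) stood at 4605 to 6392 CPM (median 4880) in controls and 2927 to 4341 CPM (median 3352) in anemic mice. It was 1.51-fold lower without overlap (log2 fold change -0.60, SE 0.11, edgeR adjusted p = 0.0472). Cstdc6 (ENSMUSG00000079594, 36321665 to 36334332, minus strand) stood at 130 to 179 CPM (median 150) and 80.8 to 117 CPM (median 88.2). It was 1.64-fold lower without overlap (log2 fold change -0.71, SE 0.11, edgeR adjusted p = 0.0142).

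The other 5 tested copies also had log2 fold changes below 0 and did not pass the threshold in the main fit. Csta3 was at -0.70 (edgeR adjusted p = 0.0797), Stfa3 at -0.49 (0.0797) and Cstdc4 at -0.53 (0.108), all without overlap between the groups. Over 26 settings Csta3 was called in 9, Stfa3 in 5 and Cstdc4 in 4. For Cstdc5, at 62712 to 97651 CPM in controls against 46160 to 69257 CPM in anemic mice, the groups overlapped (log2 fold change -0.44, edgeR adjusted p = 0.271). The overlap came from anemia 2 and anemia 3, at 69257 and 63022 CPM. The other anemic mice, at 46160 to 49958 CPM, lay below every control mouse. Over 26 settings its log2 fold change ran from -0.61 to -0.33, and it was called in 1. Stfa2 was at -0.27 (edgeR adjusted p = 0.479), with anemia 2 and anemia 3 at 5994 and 5926 CPM, within the control range of 5042 to 7115 CPM. The other anemic mice, at 3818 to 4463 CPM, lay below every control mouse. Over 26 settings its log2 fold change ran from -0.47 to -0.19, and it was called in 0. Of the stefins and cystatins at other loci, Cstb (stefin B) was at 0.18 (edgeR adjusted p = 0.801) and Cst3 (cystatin C) at -0.39 (0.664), both also chosen after their values were seen.

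**Figure D4:**
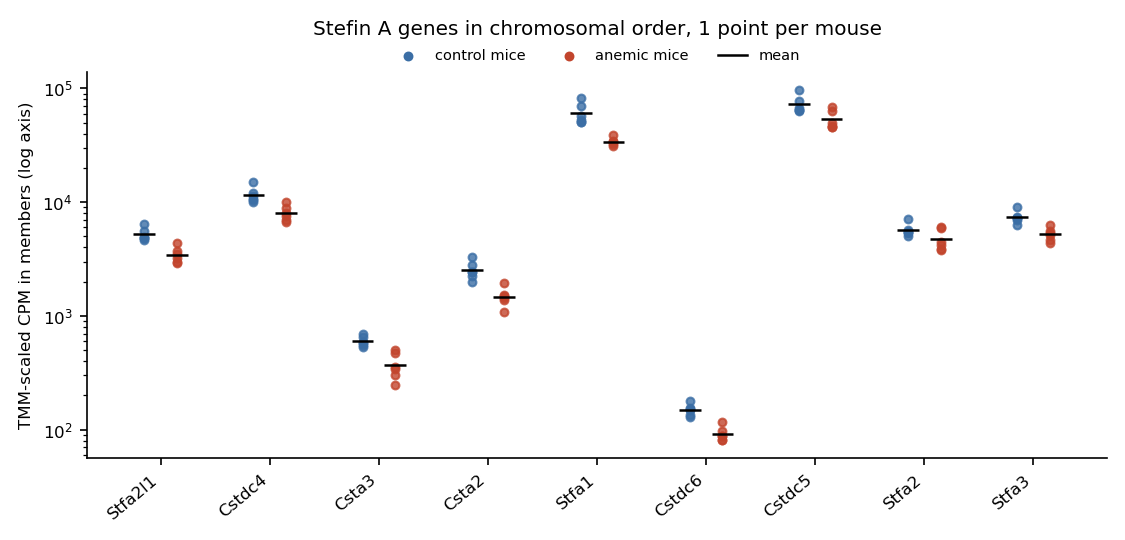
TMM-scaled CPM in members on a log axis of the 9 tested stefin A genes in chromosomal order, 1 point per mouse in blue for control and red for anemia, with bars at the means. All red points lay below all blue points for Stfa2l1, Cstdc4, Csta3, Csta2, Stfa1, Cstdc6 and Stfa3, and the colours overlapped for Cstdc5 and Stfa2.

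Summed over the cluster, stefin A transcripts took 12.5% to 17.2% (median 13.4%) of the members' UMIs in controls and 9.06% to 11.7% (median 9.36%) in anemic mice, without overlap. Per member the cluster had 327 to 401 UMIs (mean 363 ± 27.2) in controls and 282 to 467 UMIs (mean 351 ± 80.3, SD, n = 6 per group) in anemic mice. Anemia 2 and anemia 3, at 467 and 439 UMIs, lay above every control mouse, and the other 4 anemic mice, at 282 to 322 UMIs (mean 300.4 ± 16.6), below every control mouse. Stfa1 alone had 132 ± 14.4 UMIs per member in controls and 107 ± 16.9 with anemia, or 97.3 ± 7.53 without these 2 mice. With each member thinned to 1000 UMIs before the sum, Stfa1 was at -0.71 on the log2 scale (edgeR adjusted p = 0.00262), Csta2 at -0.70 (0.0210) and Stfa2l1 at -0.47 (0.0366), and Cstdc6 at -0.55 lost its call (0.134). Leaving out control 1 took Stfa1 to an edgeR adjusted p of 0.0562, the only 1 of 26 settings in which it was not called.

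The mean share was lower in anemic mice on both sides of the cell cycle cut, and the 2 sides were not tested against each other. In cycling members the cluster took 12.0 ± 1.95% of UMIs in controls and 7.46 ± 0.678% in anemic mice, without overlap. In the other members it took 16.2 ± 1.73% and 12.1 ± 1.65%, where anemia 2, at 15.2%, lay within the control range of 14% to 18.8% and the other 5 anemic mice lay below it. In mature neutrophils it took 9.47 ± 1.03% and 6.26 ± 1.24%, and in primary-granule cells 2.30 ± 0.892% and 1.12 ± 0.512% (SD, n = 6 per group). In kept barcodes outside the lineage it took 0.0354% to 0.0730% in controls and 0.0268% to 0.134% in anemic mice. Of the anemic mice, 2 (anemia 2 and anemia 3) lay above and 2 below every control mouse. Without the receptor minimum, mature neutrophils would number 1728 in anemia 2 and 1262 in anemia 3, against 909 and 799. These barcodes can thus include granulocytes that the limits cut, so the share is not a level in other cell types.

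No difference in anemia effect between the members and the neighbouring stages was shown for the stefin genes. Of 6996 genes tested for an interaction of stage and anemia against primary-granule cells, edgeR called 0 (0%), with 460 at an unadjusted p under 0.05, and no other tool was run for it. Against mature neutrophils it called 1 of 7189 (0.0139%), which was Nrg1. For Stfa1 the interaction was 0.07 (SE 0.21, edgeR adjusted p = 0.954) against mature neutrophils and 0.40 (SE 0.31, edgeR adjusted p = 0.865) against primary-granule cells. In mature neutrophils themselves Csta2 passed at -0.64 (edgeR adjusted p = 0.0460) and Stfa1 was at -0.84 (0.0587).

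Sequences near the annotated starts of the stefin copies are shown because the copies moved in the same direction. Sequences are from RefSeq on GRCm38.p6, which held entries for 9 of the 10 genes. In 4 genes RefSeq and GENCODE place the start at the same base, and the 100 bases before it are given 5′ to 3′ on the gene's strand for Stfa2l1 (chr16:36156711-36156810, plus), Cstdc4 (chr16:36184112-36184211, plus), Csta3 (chr16:36210303-36210402, plus) and Stfa3 (chr16:36455393-36455492, minus), with a shared 9-base word in capitals:
Stfa2l1: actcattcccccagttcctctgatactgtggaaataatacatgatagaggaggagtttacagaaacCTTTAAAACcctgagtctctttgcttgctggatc
Cstdc4: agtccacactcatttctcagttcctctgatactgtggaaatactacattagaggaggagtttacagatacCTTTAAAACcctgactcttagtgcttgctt
Csta3: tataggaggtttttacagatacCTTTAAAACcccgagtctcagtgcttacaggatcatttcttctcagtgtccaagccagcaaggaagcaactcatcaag
Stfa3: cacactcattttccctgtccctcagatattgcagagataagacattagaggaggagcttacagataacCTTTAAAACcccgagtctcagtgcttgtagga

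In the next 3 genes the annotated starts differ between the sources, and only 30 bases around the word are given for Stfa1 (chr16:36277106-36277135, plus), Cstdc5 (chr16:36367562-36367591, minus) and Stfa2 (chr16:36408375-36408404, minus):
Stfa1: ctttcggatacCTTTAAAACcctgagtctc
Cstdc5: tttacagatacCTTTAAAACcccgagtctc
Stfa2: cttacagaaacCTTTAAAACcctgagtctc

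The word CTTTAAAAC, or GTTTTAAAG on the other strand, began 10 to 78 bases before the RefSeq start in these 7 genes and was absent from the windows of Csta1 and Csta2. In Csta1 and Csta2 the annotated starts also differ between the sources. The Csta2 window (chr16:36221462-36221561, plus) runs past the GENCODE start at 36221468, and that of Csta1 (chr16:36131190-36131289, minus) past 36131241. Both windows thus lie partly inside the GENCODE gene, and the bases before those starts were not fully searched. In Stfa1, Cstdc5 and Stfa2 the word itself lies inside the GENCODE gene, past the starts at 36276951, 36367748 and 36408457. By GENCODE it is thus not before the start in these 3 genes. The word was chosen after reading the sequences. Of 32851 promoters in the RefSeq table, 49 (0.149%) held it in the same 100 bases, these 7 among them, and those of Ngp, Camp and Ltf did not. The copies are close in sequence, so words they share are not independent and these shares carry no test. The word GAGGAGGAG (CTCCTCCTC) was in 6 of the 9 stefin windows and in 1.46% of all. Among general words, TTNNGNAA, the loose form of a C/EBP site, was in 3 of 9 against 14.9%, the ETS-like AGGAAG in 1 of 9 against 13.8%, and TATAAA in 0 of 9 against 5.56%. Csta2, called lower, held neither of the first 2 words in its window. Cstdc5, not called in the main fit and called in 1 of 26 settings, held both.

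Outside the stefins, the called genes that rose were few. Il1r2, the decoy receptor for interleukin 1 that late neutrophils carry, stood at 211 to 303 CPM (median 260) in controls and 341 to 437 CPM (median 389) in anemic mice. The groups did not overlap, and it was 1.49-fold higher (log2 fold change 0.58, SE 0.10, edgeR adjusted p = 0.0242).

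Fabp4 and Mif were higher too, and both were also higher around the members. Fabp4, a fatty acid carrier of capillary endothelium and macrophages, stood at 32.2 to 59.9 CPM (median 49.1) in controls and 64.0 to 202 CPM (median 137) in anemic mice, 2.71-fold higher without overlap (log2 fold change 1.44, SE 0.26, edgeR adjusted p = 0.0340). In kept barcodes outside the lineage its mean was 1188 CPM in controls against 2783 CPM in anemic mice, far above the level in members. Mif, a cytokine gene induced by hypoxia, stood at 12.4 to 41.6 CPM (median 30.0) and 51.8 to 91.8 CPM (median 69.1), 2.37-fold higher without overlap (log2 fold change 1.25, SE 0.23, edgeR adjusted p = 0.0375), and outside the lineage Mif was at 209 and 385 CPM. The part of RNA from other cells in either result was not tested. Without anemia 2 and anemia 3, Mif lost its call (log2 fold change 1.03, edgeR adjusted p = 0.0797).

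Of the 5 called genes that fell outside the stefin cluster, 3 are liver metabolic genes at low counts. Cyp2e1, the ethanol-oxidizing cytochrome P450 of hepatocytes, stood at 39.5 to 80.8 CPM (median 51.9) in controls and 0 to 21.0 CPM (median 8.40) in anemic mice (280 and 50 UMIs in all, log2 fold change -2.75, SE 0.39, edgeR adjusted p = 0.0103). Car3, a carbonic anhydrase of liver, fat and muscle, stood at 9.97 to 46.1 CPM (median 28.2) and 1.58 to 6.63 CPM (median 3.53), with 144 and 22 UMIs (log2 fold change -2.99, SE 0.40, edgeR adjusted p = 0.00875). For Gsta3, a glutathione transferase, the groups overlapped and 5 of 6 anemic values were lower than all control values (log2 fold change -1.81, SE 0.34, edgeR adjusted p = 0.0472). In kept barcodes outside the lineage, means were 107 and 32.9 CPM for Cyp2e1, 61.6 and 26.0 CPM for Car3, and 76.8 and 43.8 CPM for Gsta3. These genes were thus lower in anemic mice both within and outside the members, and the part of free hepatocyte RNA was not tested.

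The other 2 are not hepatocyte genes. Stambpl1, a deubiquitinase, stood at 139 to 202 CPM (median 174) in controls and 79.3 to 128 CPM (median 103) in anemic mice, 1.64-fold lower without overlap (log2 fold change -0.72, SE 0.13, edgeR adjusted p = 0.0340). Bop1, a ribosome assembly factor, stood at 13 to 34.0 CPM (median 28.5) and 1.58 to 12.0 CPM (median 6.18), without overlap, on 126 and 43 UMIs (log2 fold change -1.97, SE 0.35, edgeR adjusted p = 0.0340). Outside the lineage Stambpl1 was at 78.8 and 58.8 CPM and Bop1 at 18.6 and 15 CPM.

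Secondary granule genes outside the rule had log2 fold changes of -0.28 to 0.16. Of 15 secondary granule genes not used by the rule, all tested, edgeR, DESeq2 and limma voom each called 0. As edgeR called 0.159% of all genes, 0 of 15 is near the background. None had an unadjusted p under 0.05, beside 10.6% of all genes. Of the 15, 8 lay above 0, and the median log2 fold change was 0.005, beside 0.008 over all genes. Their summed level was 20760 to 23748 CPM in controls against 21576 to 27051 CPM in anemic mice, with overlap. Lcn2 was at 0.16 (edgeR adjusted p = 0.549) and Chil3 at -0.08 (edgeR adjusted p = 0.908). Without TMM scaling the median of all genes moved to 0.08 and Chil3 to 0.01.

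In the primary granule, S100, oxidase and transcription factor lists edgeR, DESeq2 and limma voom each called 0. The 10 tested of 12 primary granule genes had a median log2 fold change of 0.02, the 8 S100 and alarmin genes -0.03 and the 6 NADPH oxidase genes 0.004, with 0 unadjusted p under 0.05 in each. S100a8 and S100a9, the calprotectin subunits, were at -0.08 and -0.02, and without TMM scaling S100a9 turned to 0.06. The 16 factors and receptors of granulopoiesis had a median of 0.14 and 1 unadjusted p under 0.05. Cebpe, named after its value was seen, was at 162 to 196 CPM in controls against 128 to 213 CPM in anemic mice (log2 fold change -0.07, edgeR adjusted p = 0.891).

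The maturation list of 25 genes held 1 called gene that rose (Il1r2) and 2 that fell (Stfa1 and Stfa2l1), with 19 above 0, a median of 0.20 and 11 unadjusted p under 0.05, beside 0.159% called, 51.3% above 0 and 10.6% unadjusted over all genes tested. Retnlg was at 0.02 (edgeR adjusted p = 0.978), and G0s2, an inhibitor of the lipase ATGL, at 0.18 (edgeR adjusted p = 0.667). Without anemia 2 and anemia 3 the median was -0.02 with 11 above 0. The 6 tested glucocorticoid-response genes held Il1r2, the same gene, as the 1 called, and a median of 0.12, with Tsc22d3 at 0.35 (edgeR adjusted p = 0.551) and Fkbp5 at 0.19 (0.697).

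The hypoxia and glycolysis list leaned upward. Of 25 tested genes, 21 lay above 0 (51.3% of all genes tested), 16 had an unadjusted p under 0.05 (10.6% of all), Mif was called (0.159% of all), and the median log2 fold change was 0.32 beside 0.008 over all genes. Summed levels ran from 5462 to 6680 CPM (median 5716) in controls and from 6748 to 7917 CPM (median 7303) in anemic mice, without overlap. Bnip3, a mitophagy receptor induced by hypoxia and named after its value was seen, stood at 12.2 to 34.3 CPM and 34.3 to 64.4 CPM, with all anemic mice above all control mice, and just missed the threshold (log2 fold change 1.17, SE 0.23, edgeR adjusted p = 0.0505). The glycolytic enzymes Aldoa, Gapdh, Pkm and Ldha were at 0.37, 0.29, 0.16 and 0.05 (edgeR adjusted p = 0.271, 0.353, 0.717 and 0.932). Without anemia 2 and anemia 3 the list median was 0.24 with 0 called.

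The higher median of the interferon-response genes and the level of Cxcl2 rested on anemia 2 and anemia 3. All 26 tested interferon-response genes lay above 0 (51.3% of all genes tested), with a median of 0.80, 0 called by edgeR, DESeq2 or limma voom (edgeR 0.159% of all) and 5 unadjusted p under 0.05 (10.6% of all). Summed levels were 848 to 2232 CPM (median 922) in controls and 1024 to 4930 CPM (median 1264) in anemic mice, with overlap. Without these 2 mice 3 of 20 tested genes lay above 0 and the median was -0.22. Ifitm3, a membrane protein that restricts virus entry, stood at 1886 and 1383 CPM in anemia 2 and anemia 3 and at 576 to 738 CPM in the other anemic mice. Cxcl2, a neutrophil-attracting chemokine, stood at 1979 and 2043 CPM in these 2 mice, at 206 to 372 CPM in the other anemic mice and at 208 to 435 CPM in control mice.

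The remaining lists held no called gene in the edgeR fit apart from Cyp2e1, beside 0.159% called of all genes tested. Of 18 chemotaxis and adhesion genes 16 lay above 0 (51.3% of all genes tested), with a median of 0.23 and 6 unadjusted p under 0.05 (10.6% of all). DESeq2 called 1 of them, and 52 of 8187 genes in all. Without anemia 2 and anemia 3 the median was 0.01. The 8 tested metal and heme genes had a median of 0.05, with Mt1, a metallothionein, at 12.2 to 49.2 CPM in controls and 40.8 to 148 CPM in anemic mice (log2 fold change 1.63, edgeR adjusted p = 0.0956). The 13 tested immediate early and heat shock genes had a median of 0.11 and 1 unadjusted p under 0.05.

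**Figure D5:**
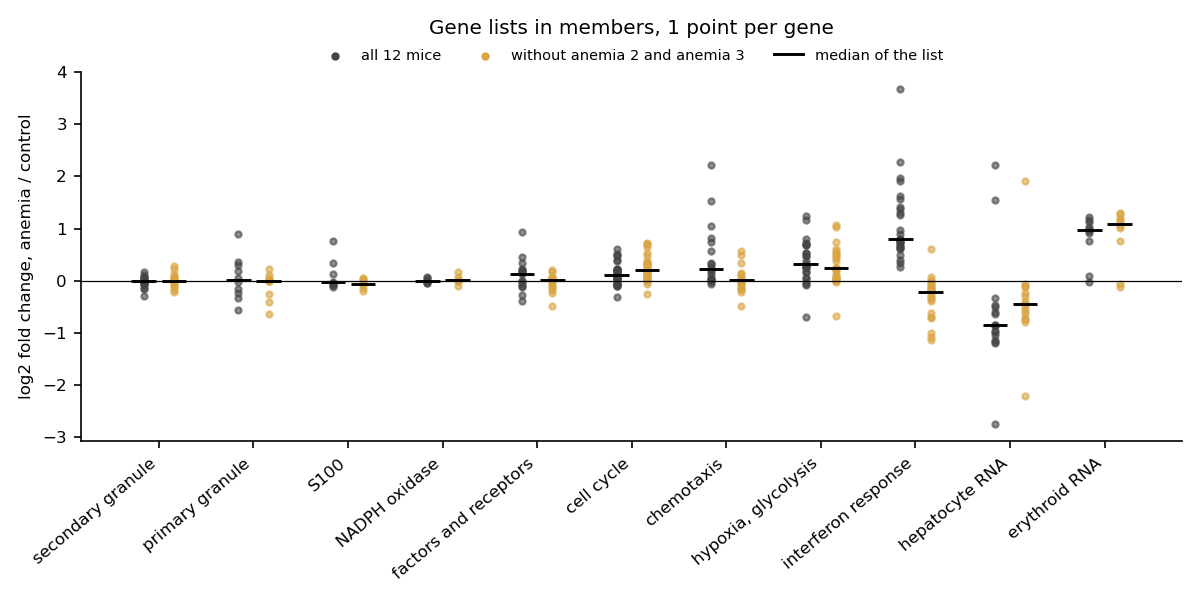
Log2 fold change in members (anemia over control) of the genes of 11 lists, 1 point per gene, with all 12 mice (grey) and without anemia 2 and anemia 3 (ochre), and bars at the list medians. The interferon-response median moved from 0.80 to -0.22, while that of hypoxia and glycolysis moved from 0.32 to 0.24 and that of the secondary granule list was at 0.00 in both.

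RNA of other liver cells was present in members. Of 17 hepatocyte genes, 2 lay above 0 against 51.3% of all genes tested (15 below, median -0.85), and Cyp2e1 was the 1 called gene, with summed levels of 4364 to 8552 CPM in controls against 993 to 9737 CPM in anemic mice. Of 10 tested erythroid genes, 9 lay above 0 (median 0.98) and 6 had an unadjusted p under 0.05, against 10.6% of all. By edgeR 0 of them were called (0.159% of all genes tested) and by DESeq2 1, where DESeq2 called 52 of 8187 genes in all. Their sums were 1591 to 12098 CPM in controls and 7174 to 24134 CPM in anemic mice. Globin mRNA was 0.430% to 4.18% of all UMIs in controls and 3.49% to 14.1% in anemic libraries. The groups overlapped in both sums. Anemia 6 stood apart among the anemic mice, with Alb (albumin) at 1602 CPM against 195 to 678 CPM in the other 5 and 818 to 1984 CPM in controls, and Ttr (transthyretin) at 1434 CPM against 94.9 to 579 and 819 to 1604 CPM. Without anemia 6 the median of the 16 hepatocyte genes then tested was -1.38 and 8 of them were called, among the 53 genes called in that fit.

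Markers of leukocytes and endothelium were low. Summed levels in members ran from 94.3 to 159 CPM in controls and 20.3 to 110 CPM in anemic mice for 8 B cell genes (4 tested, all below 0, median -1.02), from 39.0 to 152 and 8.24 to 127 CPM for 8 T and NK cell genes (5 tested, all below 0), and from 35.0 to 94.3 and 36.8 to 60.7 CPM for 7 endothelial genes (6 tested, all below 0). For 7 macrophage genes sums ran from 38.4 to 67.3 and 24.7 to 124 CPM, and for 7 monocyte genes, led by Ly6c2, which neutrophil precursors also express, from 496 to 770 and 639 to 877 CPM. The 6 eosinophil and basophil genes summed to at most 4.50 CPM in any mouse, with 2 of them at 0 UMIs. In these 5 lists edgeR called 0 of the tested genes (0.159% of all genes tested). There were 3 unadjusted p under 0.05 for B cell genes and 1 each for T and NK cell, macrophage and monocyte genes, beside 10.6% of all genes. Without the 230 members that carried other classes' markers, 36 genes were called, and all of the 13 were among them.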

How the data were processed

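Livers of 12 mice, 6 control and 6 anemic, were measured with 1 library per mouse. The authors deposited UMI counts per gene and barcode from Cell Ranger 7.0.0 (per the file headers) on mm10 (per the labels), without normalization. The labels and the study's methods name different versions of the 10X kit. Multi-mapped reads are not counted by this software, which lowers near-identical genes. The members and gene lists were chosen with earlier results of these data known.

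Barcodes were selected by UMI counts as described, with no doublet caller. Shares and median UMIs per mouse went into exact Mann-Whitney tests (two-sided) with BH adjustment over 4 results. UMIs were summed per mouse and tested by the quasi-likelihood method of edgeR 4.0.16 with TMM factors (R 4.3.3), for genes averaging 5 UMIs or more per mouse, calling at a BH-adjusted p under 0.05. Interactions had mouse as a term. CPM beside edgeR results are TMM-scaled over the genes tested, and CPM compared between classes are of all UMIs. In simulated counts of 8187 genes, the members' comparison recovered 57 of 100 genes at an absolute log2 fold change of 1 and 95 of 100 at 2, with 3 false calls. Named were up to 12 called genes per direction by fold change with at least 10 CPM and no overlap, and per list the called genes and up to 4 others by CPM, from 22 lists including 4 testable sex-linked genes (0 called). Others are marked as chosen after their values were seen. Of the 13 called genes, 1 is not reported here. Alternatives used DESeq2 1.42.0 and limma voom 3.58.1, other scalings, filters, rules and left-out mice. Python 3.11.15, numpy 2.4.6, scipy 1.17.1, pandas 2.3.3 and matplotlib 3.10.9 were used. Depth limits rare genes: 0 UMIs does not show absence.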

Additional observations from a re-analysis of the deposited data

Results flagged for a closer look

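The share of secondary-granule neutrophils in the granulocyte lineage was lowest in anemia 2 at 16.1%, far from the 38.3% to 45.5% of the other 5 anemic mice. The Stfa1 level in members was highest among anemic mice in the same mouse, at 39020 CPM against 31420 to 34223 CPM. The Stfa2 level was highest among control mice in control 3, at 7115 CPM against 5042 to 5697 CPM. These 3 came from 44 groups of 6 mice looked at for a single far value, and chance gives about 1 in 20.

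The anemia effect on Nrg1, which encodes a growth factor of the neuregulin family, was the 1 called difference between members and mature neutrophils, and no gene was called in 7 of the 12 fits with 1 mouse left out. Its log2 fold change was -0.59 in members (edgeR adjusted p = 0.519) and 2.27 in mature neutrophils (edgeR adjusted p = 0.0453), and the interaction was -2.90 (SE 0.47, edgeR adjusted p = 0.0350). Nrg1 had mean levels of 14 and 9.04 CPM in control and anemic members, of 27.3 and 128 CPM in mature neutrophils, and of 26.6 and 45.3 CPM in kept barcodes outside the lineage. The part of the last in the difference was not tested.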

How the results depend on the processing

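Against 13 genes called in members, the count was 79 with no filter on low counts (19471 genes tested), 8 with Y-linked expression as a covariate, 24 without anemia 2 and anemia 3, 24 with markers at 1% of UMIs or more, 36 without members with other markers, 39 with members thinned to 1000 UMIs (4838 genes tested) and 52 with DESeq2. It was 4 to 53 with 1 mouse left out, lowest without control 1 or control 6 and highest without anemia 6. The alternatives without anemia 2 and anemia 3 and with barcodes thinned before the rules were chosen after seeing the data, as were those without a receptor minimum and with depth divided by that of other barcodes. Apart from what the covariate, the filter and fewer mice do by construction, the cause of these changes was not tested.

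The difference in the lineage share was -18.8 to -12.9 points and that in median UMIs 666 to 847 with 1 mouse left out, both past the threshold each time. The share of cycling members turned from -1.59 to 7.77 points without thinning, was -6.38 thinned to 2000 UMIs, and turned to 0.17 with a minimum of 20 marker UMIs, to 2.08 with markers at 1% of UMIs and to 0.21 without members with other markers, and ran from -2.85 to -0.03 with 1 mouse left out. The difference in the share of kept barcodes stayed below 0 in all 23 alternatives (-0.733 without anemia 3 to -0.0722 with globin-rich barcodes left out of the denominator) and passed in none. With 1 mouse left out the interaction counts were 0 to 1 against primary-granule cells and 0 to 5 against mature neutrophils, the latter also 0 at a mean of at least 20 UMIs, so the call of Nrg1 depended on these settings.

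With the replicate number as a block, 27 genes were called, 12 of them among the 13, and the lineage share (-17.2 points) and median UMIs (768) had an exact signed-rank adjusted p of 0.0625. Both lay at the smallest p that this number of pairs allows, so beside the other per-mouse results this test could not have passed. Deviations of same-numbered mice correlated at -0.051 to 0.167 and the labels tie no number to a litter, so the numbers do not pair the mice.

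Of the genes named, Cyp2e1 was called in 26 of 26 settings, Stfa1 in 25, Cstdc6 in 24, Car3 in 24 of 25, Il1r2 in 22, Fabp4 in 19, Csta2, Stfa2l1 and Stambpl1 in 16, Mif in 15, Bop1 in 15 of 25 and Gsta3 in 11, with the same sign in each. Values near 0 changed sign: Chil3 to 0.0088 without TMM factors and 0.14 without anemia 2 and anemia 3 (-0.15 to 0.026 with 1 mouse left out), Retnlg to -0.056 without these 2 mice, -0.023 with 20 marker UMIs and -0.095 with markers at 1% (-0.045 to 0.085 with 1 left out), S100a9 to 0.058 without TMM factors, 0.0091 with no filter, 0.0079 with the Y covariate, 0.028 without the 2 mice and 0.0036 with limma voom (-0.063 to 0.011 with 1 left out), Slfn4 to -0.17 without the 2 mice, and Cebpe to 0.011 without TMM factors and 0.041 without the 2 mice (-0.13 to 0.016 with 1 left out).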

Other observations

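Other named members of the lists are given here as values. In members, the B cell genes Igkc and Cd79b were at -1.28 and -1.49 on the log2 scale (edgeR adjusted p = 0.241 for both), and Clec4f, a Kupffer cell lectin, was at 11.1 to 14.3 CPM in control and 0 to 8.98 CPM in anemic mice without overlap (log2 fold change -1.11, edgeR adjusted p = 0.269). Ms4a6c and Csf1r, monocyte genes, were at 2.83 and 0.93 (edgeR adjusted p = 0.276 and 0.522), and both values rested on anemia 2 and anemia 3. Csf1r stood at 98.1 and 71.7 CPM in these 2 mice, at 11.2 to 19.5 CPM in the other anemic mice and at 12.5 to 26.0 CPM in control mice. Ms4a6c stood at 98.1 and 29.9 CPM in the same 2 mice, at 1.85 to 12.0 CPM in the other anemic mice and at 0 to 5.65 CPM in control mice. Selplg, the P-selectin ligand, stood at means of 45.9 and 75.9 CPM, with 5 of 6 anemic mice above every control mouse (edgeR adjusted p = 0.120), and it was chosen after its value was seen.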
